A study of Mus musculus with 10 samples.

Results

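Pyroptosis and necroptosis are forms of cell death in which the plasma membrane breaks and the content of the cell spills into the tissue. Their machinery was followed here through 10 genes, Zbp1, Nlrp3, Pycard, Ripk1, Ripk3, Casp1, Casp4, Casp8, Gsdmd and Mlkl, each found by its name in the count table. These are 10 of the 36009 genes in that table. All 10 were detected in every tumor, and all 10 passed the filter on low counts.

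The tumors were CT26, a mouse colorectal carcinoma line, grown under the skin of female BALB/c mice of WT genotype. The libraries were made from polyA RNA of the piece removed at partial resection, before a hydrogel loaded with poly(I:C), a synthetic double-stranded RNA, was laid on what was left of the tumor. Each tumor was therefore untreated when it was sampled. The 6 responders were mice whose tumor later regressed completely, and the 4 non-responders were mice whose tumor grew on without delay. The comparison asked which features of a tumor before treatment went with the later response. All tumors came from 1 cell line, no batch was given in the labels, and the numbers of the tumors are names that pair nothing, so p-values measure only the spread between these tumors.

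In pyroptosis, a sensor such as NLRP3 joins the adaptor ASC, the product of Pycard, into an inflammasome that activates caspase-1. Caspase-1, or caspase-11 (the product of mouse Casp4, which is activated by bacterial lipopolysaccharide inside the cell), then cuts gasdermin D, whose fragment forms pores. In necroptosis, RIPK3 phosphorylates MLKL, which breaks the membrane, and RIPK3 is switched on through RIPK1 or through ZBP1, a sensor of left-handed double-stranded nucleic acids. Caspase-8 cuts RIPK1 and RIPK3 and so holds necroptosis back. Several of these genes are known targets of interferon, and many are expressed by myeloid cells.

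Libraries held between 23374649 and 38042544 estimated counts. Non-responder 1 stood apart from the rest, at 54.72 on the first principal component of log2 expression (38.6% of the variance), where the other tumors ran from -40.22 to 26.13. Among responders, responder 5 lay farthest the other way, at -40.22. The library of non-responder 1, with 24753763 counts, was larger only than that of non-responder 3. Non-responders 1, 2 and 3 had the smallest libraries, none above 26563619 counts, while every responder had at least 29065126. Depth thus went in part with response, and its part in the differences was not tested. Of 8 markers of colorectal epithelium, the cell type in the labels, only Cdh1 and Krt20 averaged above 1 CPM, and Epcam, Krt8, Krt18, Krt19, Cdx2 and Vil1 stayed below it. CPM is the estimated count as a share of the TMM-scaled library, times 1000000.

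Responders had more RNA from this machinery by the estimate of every gene, but only Pycard passed the test. With edgeR and a threshold of 0.05 on the adjusted p, 1 of the 10 genes was higher in responders and 0 were lower. Over all 16041 genes tested, 4.71% were called higher and 3.35% were called lower. The log2 fold change (responder over non-responder) of the 10 genes ran from 0.10 to 0.94 with a median of 0.33, where the median of all genes tested was -0.01. At an unadjusted p under 0.05 there were 7 of the 10, against 29.1% of all genes tested. Every responder lay above every non-responder for 2 of the 10 genes, Pycard and Ripk3, against 5.85% of all genes tested.

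For 9 of the 10 genes the minimum over all tumors was in non-responder 1. Non-responder 4 was among the lowest 3 tumors for 9 of the 10, and was itself the lowest for Nlrp3. Responder 5 was the highest tumor for 5 genes, responder 1 for 3 and responder 2 for 2. Without non-responder 1 the 10 estimates were still higher in responders, with a median log2 fold change of 0.21, and 0 of 10 passed the edgeR test (4 at an unadjusted p under 0.05). Without non-responder 4 the median was 0.32 and 0 of 10 passed (3 at an unadjusted p under 0.05). With both left out, a setting chosen after seeing the data, 8 of 10 estimates were higher, the median was 0.10 and 0 of 10 passed (2 at an unadjusted p under 0.05). Over all genes, 16 of 16285 passed without non-responder 1, 0 of 16239 without non-responder 4 and 0 of 16540 with both left out. At an unadjusted p under 0.05 there were 3654, 4106 and 2766 of all genes in these edgeR fits, in the same order. DESeq2, with all tumors, called 3 of the 10 genes higher, Pycard, Ripk3 and Gsdmd. It also called more genes over the whole table, 1542 higher of 25768 fitted, where edgeR called 756 of 16041. DESeq2 was fitted without the filter on low counts.

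**Figure D1:**
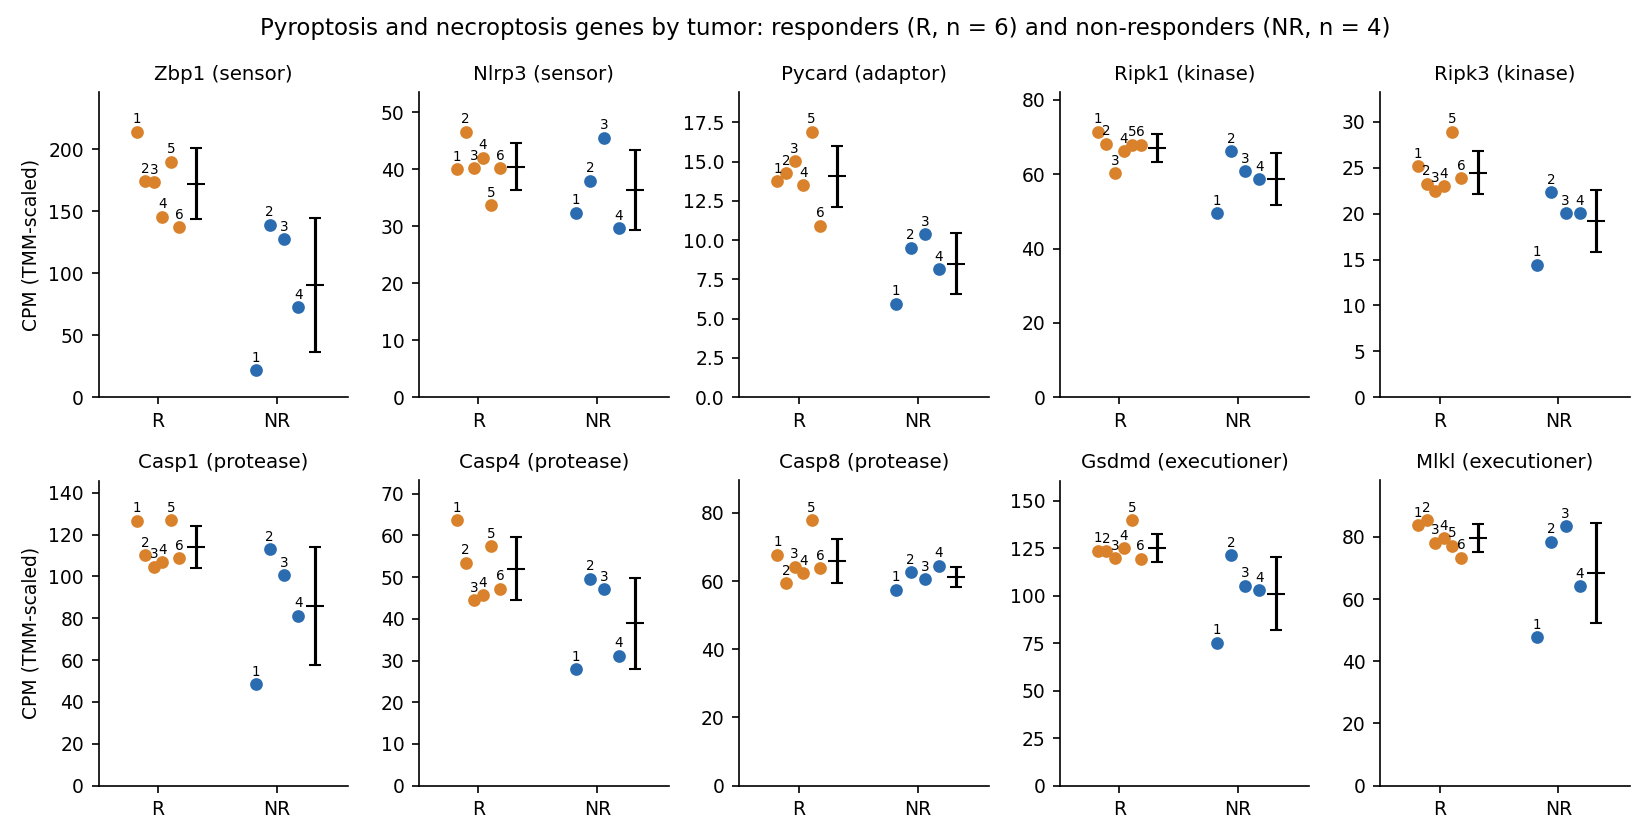
Expression of the 10 genes in CPM (vertical axes, linear and from 0) in each responder (R, n = 6, orange) and non-responder (NR, n = 4, blue), with the number of the tumor above each point and the mean ± SD in black beside each group. Pycard and Ripk3 are the genes whose groups do not overlap, and non-responder 1 is the lowest point in every panel except Nlrp3.

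Among the sensors, Zbp1 (ENSMUSG00000027514, GRCm38 chr2:173206612-173218923, minus strand) had the largest estimate of the 10 genes and also the widest spread. It ran from 137 to 214 CPM with a median of 173 in responders, and was at 21.7, 139, 127 and 72.3 CPM in non-responders 1 to 4. Of the 6 responders, 5 lay above all non-responders, while responder 6 lay just under non-responder 2. The means were 172 ± 28.3 CPM (SD, n = 6) and 90.1 ± 54.1 (SD, n = 4), a log2 fold change of 0.94 with an SE of 0.38 that did not pass (edgeR adjusted p = 0.133). Without non-responder 1 it was 0.62 (SE 0.20, edgeR adjusted p = 0.117).

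Nlrp3 (ENSMUSG00000032691, chr11:59541568-59566956, plus strand), the sensor that answers potassium loss and many forms of membrane damage, barely separated the groups. It ran from 33.6 to 46.5 CPM with a median of 40.2 in responders, and the 4 non-responders were at 32.3, 37.96, 45.5 and 29.6 CPM. The groups overlapped over most of their range, and non-responder 3 exceeded 5 of the 6 responders. Its log2 fold change was 0.15 (SE 0.12, edgeR adjusted p = 0.407), and it was 0.07 without non-responder 4 and 0.28 without non-responder 3, neither of which passed (edgeR adjusted p = 0.752 and 0.122). It also went its own way between tumors, since responder 5, the highest tumor for 5 of the other genes, was the lowest responder for Nlrp3.

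Pycard (ENSMUSG00000030793, chr7:127989708-127993867, minus strand) encodes ASC, the adaptor that links sensors to caspase-1. Its level ran from 10.9 to 16.9 CPM with a median of 14.0 in responders, and was 5.95, 9.52, 10.4 and 8.16 CPM in the non-responders. All 6 responders lay above all 4 non-responders, with responder 6 and non-responder 3 nearest to each other. The means were 14.05 ± 1.96 CPM (SD, n = 6) and 8.495 ± 1.92 (SD, n = 4), and Pycard was higher in responders by 0.73 on the log2 scale (SE 0.15, edgeR adjusted p = 0.0299). The counts behind it were 147 to 604 a tumor.

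The call on Pycard was lost when certain single tumors were left out, as were most calls in the table. With each tumor left out in turn its log2 fold change stayed between 0.60 and 0.83, and the call was kept in 6 of 10 fits. It was lost without responder 2 (edgeR adjusted p = 0.0568), responder 3 (0.0656), non-responder 1 (0.0607) or non-responder 4 (0.0817). Over all genes the count called fell from 1293 to 244, 17, 16 and 0 in these fits, in the same order. The unadjusted edgeR p of Pycard in them ran from 0.000929 to 0.00266. Leukocyte RNA moved with it. Ptprc, which encodes the pan-leukocyte antigen CD45, was at 326 to 499 CPM in responders and 181 to 307 in non-responders, and the summed level of 7 macrophage markers, each above 1 CPM, was 2338 to 3498 against 1736 to 2268. Neither range overlapped between groups. With Ptprc as a covariate the log2 fold change of Pycard was 0.20 (edgeR adjusted p = 0.915), a fit in which 0 of all genes passed (845 at an unadjusted p under 0.05). In bulk tumor RNA, fewer cells of a type and less RNA per cell cannot be told apart. Part of the Pycard signal is also uncertain because 485 of its exon bases are shared with Gm45205 on the opposite strand and the strand setting of the counting was not stated.

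Neither kinase of necroptosis passed the test. Ripk3 (ENSMUSG00000022221, chr14:55784995-55788865, minus strand) ran from 22.5 to 28.9 CPM with a median of 23.6 in responders, and was at 14.5, 22.3, 20.1 and 20.1 CPM in non-responders. The groups did not overlap, but responder 3 and non-responder 2 all but met. Its log2 fold change of 0.35 (SE 0.11) did not pass (edgeR adjusted p = 0.0742). The call changed with the tool and the tumors, to an adjusted p of 0.0269 by DESeq2 and of 0.0424 by edgeR without non-responder 2. Without non-responder 2 the genes called over the whole table also rose, from 1293 to 1897.

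Ripk1 (ENSMUSG00000021408, chr13:34002363-34037147, plus strand), the kinase and scaffold at the TNF receptor, was held in a narrow range. It ran from 60.3 to 71.4 CPM with a median of 68.0 in responders, and was at 49.4, 66.3, 60.8 and 58.7 CPM in non-responders. Of the 6 responders, 4 lay above all non-responders, and non-responders 2 and 3 lay inside the range of the responders. Its log2 fold change was 0.19 (SE 0.07, edgeR adjusted p = 0.118), and without non-responder 2 it passed (edgeR adjusted p = 0.0463), as did 1897 genes in all. Without non-responder 1 it was 0.12 (edgeR adjusted p = 0.258). Ripk1 shares 752 exon bases with Serpinb6a, Gm17083 and Gm17084.

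The promoters were searched for interferon-type motifs because Zbp1 varied with interferon-inducible genes, as described further on. RefSeq windows from 250 bases before to 50 after the start were given for 8 of the 10 genes (11 windows, GRCm38.p6), and none was given for Zbp1 or Gsdmd. The letters searched on both strands were GAAANNGAAA, of the kind known as an interferon-stimulated response element, and TTCNNNGAA, of the kind known as a gamma-activated site. Of all 32851 RefSeq mouse windows, 3.443% held the former and 8.298% the latter. Among the 8 genes matches were found only in the second of the Ripk1 windows, and those of Nlrp3, Pycard, Ripk3, Casp1, Casp4, Casp8 and Mlkl held neither run of letters. The 2 TTCNNNGAA matches of Ripk1, in capitals, began 108 and 11 bases before the start, on the plus strand at chr13:34002741-34002799 and chr13:34002838-34002873, and are shown because they were the only matches of this kind among the genes.
Ripk1 at -108: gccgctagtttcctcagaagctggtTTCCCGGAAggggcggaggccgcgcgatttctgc
Ripk1 at -11: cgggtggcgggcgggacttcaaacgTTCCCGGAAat
The GAAANNGAAA match of Ripk1, GAAATCGAAA, began 5 bases before the start, ran across it and overlapped the latter of these. A match is a description of the letters and not of binding.

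The inflammatory caspases did not pass the test either. Casp1 (ENSMUSG00000025888, chr9:5298517-5307265, plus strand), which also matures interleukin-1β and interleukin-18, ran from 105 to 127 CPM with a median of 109.6 in responders, and was at 48.5, 113, 101 and 81.3 CPM in non-responders. Non-responder 2 lay above 4 of the 6 responders. The log2 fold change was 0.41 (SE 0.18, edgeR adjusted p = 0.162), and 0.22 without non-responder 1 (edgeR adjusted p = 0.234). Casp4 (ENSMUSG00000033538, chr9:5308828-5336783, plus strand) lies next to Casp1 on chromosome 9. It ran from 44.5 to 63.6 CPM with a median of 50.4 in responders, and was at 28.0, 49.6, 47.1 and 31.2 CPM in non-responders. The estimate was 0.42 on the log2 scale (SE 0.17) and did not pass (edgeR adjusted p = 0.126). Non-responders 1 and 4 lay under every responder for both caspases, while non-responders 2 and 3 lay inside or close to the range of the responders.

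Casp8 (ENSMUSG00000026029, chr1:58795374-58847503, plus strand), the protease that holds necroptosis back, had the smallest estimate of the 10 genes. It ran from 59.3 to 77.8 CPM with a median of 64.0 in responders, and was at 57.5, 62.5, 60.5 and 64.5 CPM in non-responders. The groups overlapped, and the spread of the responders came from responder 5 at the top. Its log2 fold change was 0.10 (SE 0.07, edgeR adjusted p = 0.344), and 0.05 without responder 5 (edgeR adjusted p = 0.544).

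Of the executioners, Gsdmd (ENSMUSG00000022575, chr15:75862327-75867408, plus strand) gave a tight group of responders. It ran from 119 to 139.6 CPM with a median of 124, and the highest, responder 5, lay well above the other 5. Non-responders were at 75.2, 121, 105 and 103 CPM, so that non-responder 2 lay inside the range of the responders. Its log2 fold change of 0.31 (SE 0.11) did not pass (edgeR adjusted p = 0.0855), although DESeq2 (adjusted p = 0.0367) and edgeR without non-responder 2 (adjusted p = 0.0319) called it. Both of these fits also called more genes over the whole table. Without non-responder 1 the log2 fold change of Gsdmd was 0.20 (edgeR adjusted p = 0.134).

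Mlkl (ENSMUSG00000012519, chr8:111311797-111338177, minus strand), the executioner of necroptosis, was less distinct. It ran from 73.2 to 85.3 CPM with a median of 78.9 in responders, and was at 47.8, 78.5, 83.5 and 64.1 CPM in non-responders. Non-responders 2 and 3 lay inside the range of the responders, and non-responders 1 and 4 lay below it. The log2 fold change was 0.22 (SE 0.13, edgeR adjusted p = 0.277), and it fell to 0.09 without non-responder 1 (edgeR adjusted p = 0.562).

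**Figure D2:**
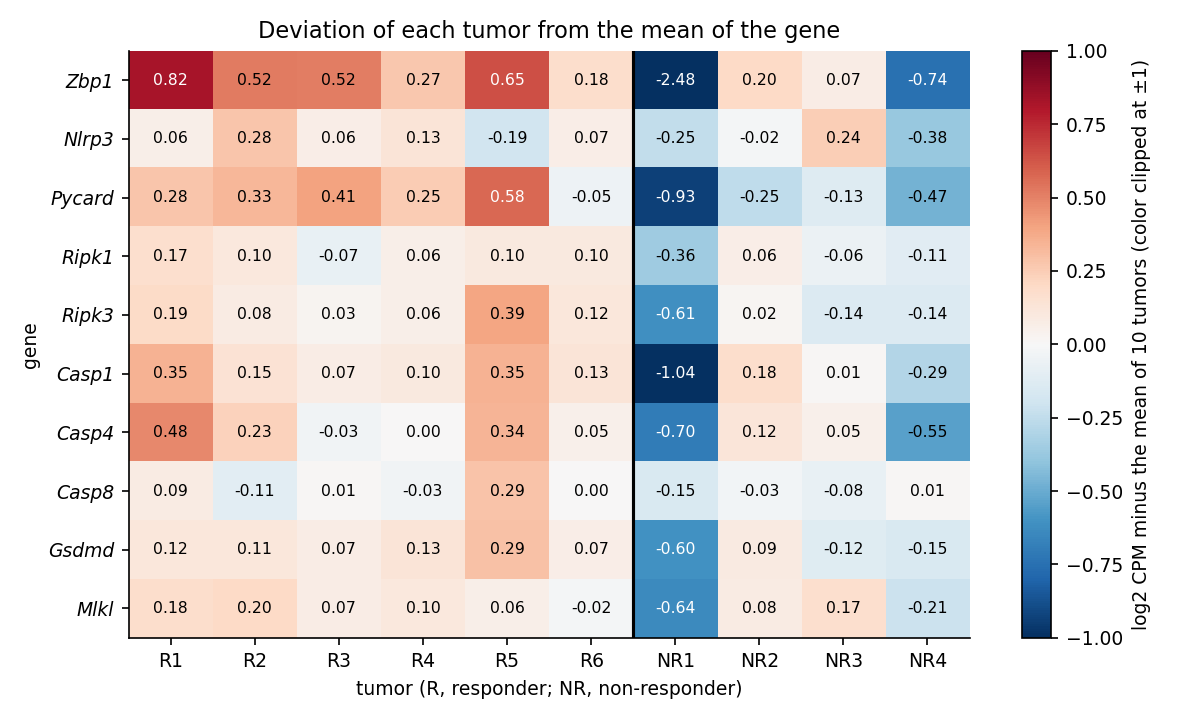
Log2 CPM of each gene (rows) in each tumor (columns; R, responder; NR, non-responder) minus the mean of that gene over the 10 tumors, with the color limited to the range from -1 to 1 and the value printed in each cell. Non-responder 1 is low for nearly the whole set, down to -2.48 for Zbp1, while Casp8 stays between -0.15 and 0.29 across all tumors.

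**Figure D3:**
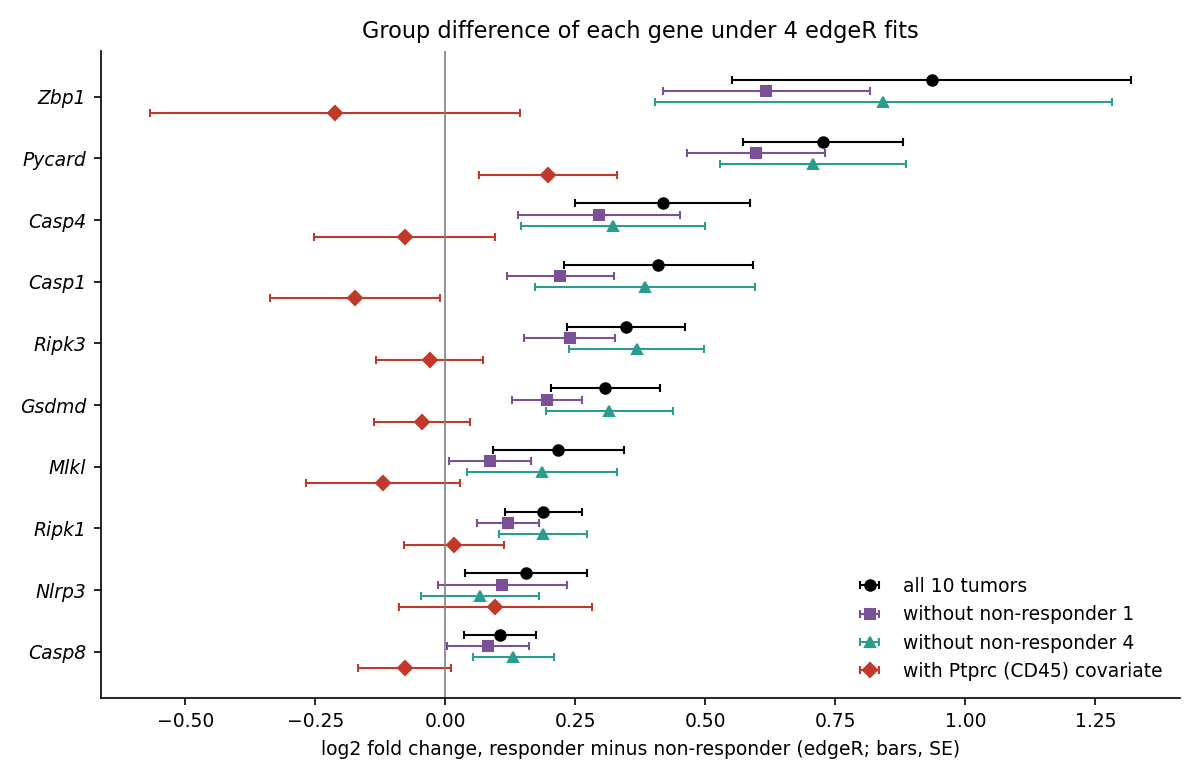
Log2 fold change, responder over non-responder, of each gene (points; bars, SE) in edgeR fits on all 10 tumors (black circles), without non-responder 1 (purple squares), without non-responder 4 (green triangles) and with the level of Ptprc as a covariate (red diamonds). Estimates stay to the right of 0 in the first 3 fits, and 3 of 10 do so with the covariate.

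With Ptprc in the model the estimates of the 10 genes moved to between -0.21 and 0.20, with a median of -0.06. Those of Pycard, Nlrp3 and Ripk1 stayed above 0. Zbp1 moved the farthest, from 0.94 to -0.21. None of the 10 reached an unadjusted p under 0.05 in this edgeR fit, where 845 of all 16041 genes did. Ptprc itself separated the groups, so in these tumors the level of Ptprc and the response cannot be told apart.

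Other marker lists moved with the set as well. The summed levels of 5 inflammatory monocyte markers (178 to 271 CPM in responders, 85.5 to 165 in non-responders) and of 5 NK cell markers (46.6 to 93.3 against 12.97 to 41.2) did not overlap between groups. Those of 5 neutrophil markers (75.1 to 154 against 59.3 to 126), 5 T cell markers (30.3 to 109 against 16.6 to 37.9) and 5 fibroblast markers (3384 to 3948 against 2866 to 4210) did. None of these markers was at 0 in every tumor, although Chil3, Klra8, Retnlg and, of the lists that follow, Lep averaged below 1 CPM. The summed colorectal markers went the other way, with 17.5 to 42.1 CPM in responders and 40.3 to 84.8 in non-responders, mostly from Krt20. The summed levels of 5 skeletal muscle markers (339 to 1120 CPM in responders, 302 to 394 in non-responders), 5 adipocyte markers (15.6 to 52.1 against 8.54 to 19.2) and 5 markers of CD8 and cytotoxic lymphocytes (105 to 271 against 23.2 to 118) overlapped at their ends, with medians of 629 against 311, 36.8 against 13.7 and 171 against 69.97 CPM. The part of cell content in the differences of the 10 genes was not tested. The Ptprc fit cannot decide it, because the level of Ptprc did not overlap between the groups.

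Between genes, levels were compared per length, as CPM per kb of exon. In responders the order was Casp1 (76.2 CPM per kb), Gsdmd (52.6), Zbp1 (48.8), Mlkl (34.5), Casp8 (22.8), Casp4 (14.0), Ripk3 (10.7), Nlrp3 (9.96), Ripk1 (8.03) and Pycard (3.70). Mlkl was thus more abundant per length than Ripk3 and Ripk1, the kinases upstream of it. Gsdmd came between Casp1 and Casp4, whose products cut gasdermin D, and the adaptor Pycard came last at the length used. In non-responders Zbp1 fell from 48.8 to 25.5 CPM per kb as a mean and came after Mlkl (29.7), and Nlrp3 (8.96) came before Ripk3 (8.39). Most neighbors in the order kept it in 9 or 10 of the 10 tumors. Zbp1 was above Mlkl in 7 tumors and Ripk3 above Nlrp3 in 5, so these neighbors were not distinct beyond the spread between tumors.

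The length used matters to part of this order. With the longest transcript in place of all exons, the mean over 10 tumors rose from 12.6 to 24.6 CPM per kb for Casp4, from 48.6 to 64.5 for Gsdmd, from 22.1 to 24.8 for Casp8 and from 7.64 to 9.85 for Ripk1. In responders Casp4 then came before Casp8, and Ripk1 before Nlrp3. Pycard kept the last place on both scales, but its length on both was 3800 bases, that of the longer of its 2 annotated transcripts, and a shorter length would raise its level.

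**Figure D4:**
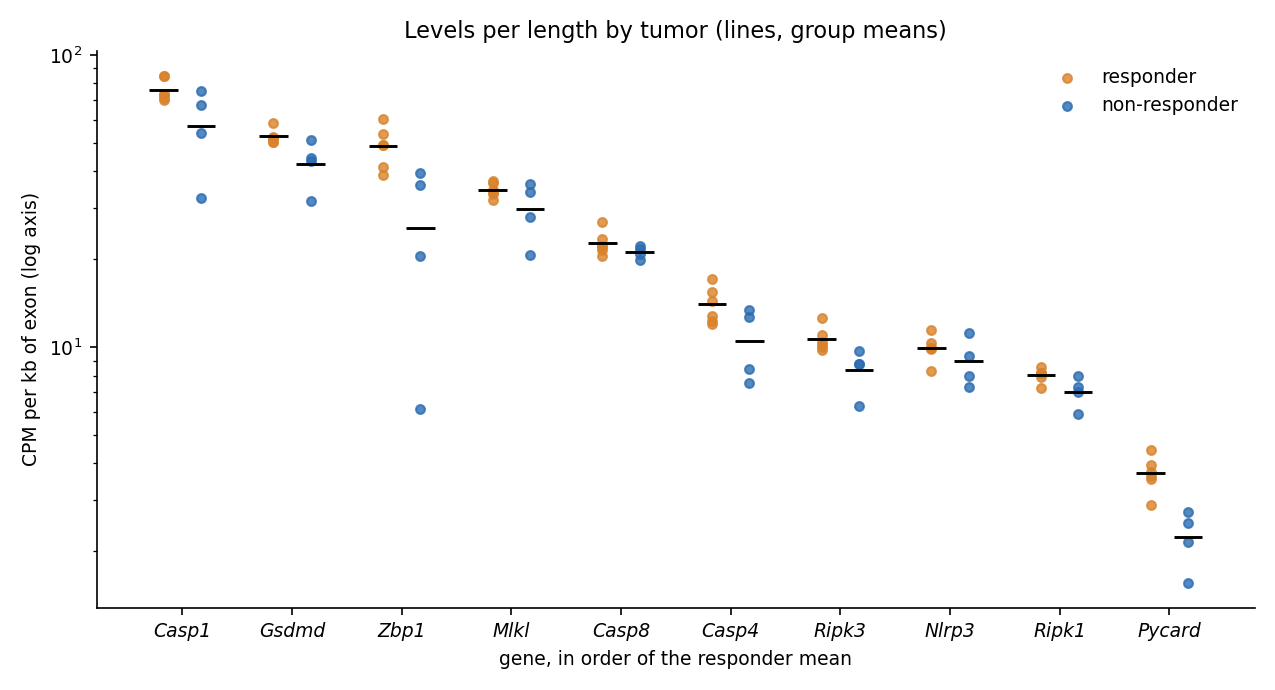
Level per length (CPM per kb of exon, log axis) of the 10 genes in responders (orange, n = 6) and non-responders (blue, n = 4), with black lines at group means and genes in the order of the responder mean. Casp1 leads at 76.2 and Pycard is last at 3.70 in responders. On the log axis, the non-responder points of Zbp1 spread over a wider range than those of any other gene shown.

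Within a tumor, the balance between partners was described as the difference of their log2 CPM. Zbp1 minus Ripk1, a sensor of necroptosis against the kinase of the TNF route, was 1.35 ± 0.23 (SD, n = 6) in responders, from 1.01 to 1.58, and -1.19, 1.07, 1.06 and 0.30 in non-responders. Non-responders 1 and 4 lay below every responder, and non-responders 2 and 3 inside their range. Mlkl minus Casp8, the executioner against the protease that restrains its route, was 0.28 ± 0.18 in responders and 0.13 ± 0.33 in non-responders, with ranges that overlapped. Gsdmd minus Mlkl was 0.65 ± 0.12 against 0.57 ± 0.16, and Casp4 minus Casp1 was -1.14 ± 0.10 against -1.12 ± 0.24. These differences between responders and non-responders were smaller than the SD of either group, apart from that of Zbp1 minus Ripk1, which was itself of about the size of its SD in non-responders.

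The genes also varied together between tumors of the same group. After the group means were removed, the 45 pairs among the 10 genes had a median Pearson r of 0.76 over the 10 tumors, from -0.58 to 0.98. Without non-responder 1 the median was 0.51, from -0.74 to 0.95. Zbp1 and Casp1 were the closest pair (r = 0.98, 0.89 without non-responder 1), and Nlrp3 and Casp8 were the farthest (r = -0.58, and -0.74 without it). Casp1 and Casp4, neighbors on the chromosome, had r = 0.87, and 0.95 without non-responder 1. The points share their libraries and cell content, and these values are descriptions.

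By the same measure, the genes most like each of the 10 were picked from 13733 genes that averaged at least 1 CPM. Zbp1 was most like Iigp1, an interferon-inducible GTPase (r = 0.997). Casp1 was most like Serpina3f (r = 0.994) and Ly6a (r = 0.993), and Mlkl like Mvp (r = 0.969) and Batf2 (r = 0.968). For Pycard they were Themis2 (r = 0.982) and St6galnac4 (r = 0.980), and for Ripk3 Tlr6 (r = 0.985) and P2ry14 (r = 0.977). Nlrp3 had the loosest companions, Suco (r = 0.962) and Rhov (r = 0.929). The others were Ctrl and Psmb2 for Ripk1, Sp4 and Hcar2 for Casp4, Tk2 and Tmem181a for Casp8, and Mospd1 and Ago4 for Gsdmd, with r from 0.958 to 0.985. These values too are descriptions, over 10 tumors that share libraries and cell content. Each companion was picked as among the closest of 13733 genes over only 10 tumors, and such picking by itself favors a high r. No r without non-responder 1 is given for these companions. Leaving that tumor out lowered the median r of the pairs among the 10 genes from 0.76 to 0.51.

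Beside the 10 genes, 60 further genes of the same pathways were followed in lists, of which 52 could be tested. Of these, 10 were higher in responders, where 4.71% of all genes were, and 42 did not pass. Their median log2 fold change was 0.16. Of the 10 calls, 7 fell on genes upstream of caspase-1. Among other inflammasome sensors and partners, 7 of 13 tested were higher and 0 lower, with a median log2 fold change of 0.30.

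Those 7 genes include sensors of several kinds. Aim2, which senses DNA in the cytosol, had 12.5 ± 1.94 CPM (SD, n = 6) in responders and 7.60 ± 1.95 (SD, n = 4) in non-responders (log2 fold change 0.72, SE 0.17, edgeR adjusted p = 0.0345). Nlrp1b, which senses proteases of pathogens, had 6.37 ± 1.18 CPM in responders and 4.07 ± 0.53 in non-responders (0.65, SE 0.15, edgeR adjusted p = 0.033). Naip2, Naip5 and Naip6, which recognize bacterial flagellin or secretion proteins, were higher by 0.60, 0.65 and 0.65 on the log2 scale (edgeR adjusted p = 0.0359, 0.0383 and 0.0264). Nlrc4, the partner of the NAIP proteins, was higher by 0.53 (SE 0.14, edgeR adjusted p = 0.0432). P2rx7, the ATP-gated channel whose opening activates NLRP3, had 95.0 ± 7.06 CPM in responders and 78.5 ± 5.36 in non-responders (0.28, SE 0.06, edgeR adjusted p = 0.033).

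With Ptprc as a covariate none of these 7 passed (edgeR adjusted p of 0.915 or more), and the estimates fell to 0.11 for Aim2, 0.21 for Nlrp1b, 0.16 for Naip2, 0.11 for Naip5, 0.25 for Naip6, 0.09 for Nlrc4 and 0.16 for P2rx7. In this edgeR fit 0 of all 16041 genes passed (845 at an unadjusted p under 0.05), so it cannot single out these 7. The levels of Ptprc and of the macrophage markers, given above, did not overlap between groups. All 6 responders lay above all 4 non-responders for each of these 7 genes but Nlrc4, that is for 6 of the 13 tested in this list, against 5.85% of all genes tested. The 7 were picked by the test on the same tumors, so this is not separate evidence. The NAIP genes are close copies of each other, as are Nlrp1a and Nlrp1b, so how the counts were split among copies is uncertain. Naip1 stayed at 0.842 and 0.711 CPM in responders and non-responders and did not pass, nor did Mefv, with a log2 fold change of 0.01. The cargo of the inflammasome did not pass. Il1b was at 137 ± 33.9 CPM in responders and 104 ± 29.0 in non-responders (0.40, SE 0.21, edgeR adjusted p = 0.221), and Il18 at 11.5 ± 1.35 and 10.1 ± 3.12 (0.19, SE 0.18, edgeR adjusted p = 0.518). In the list of released cargo 0 of 5 genes passed edgeR, and 0 of 5 had an unadjusted p under 0.05.

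At the membrane, 1 of 7 genes tested was called higher, where 4.71% of all genes tested were. Ninj1, which breaks the membrane open after the pores of gasdermin have formed, had 61.3 ± 5.91 CPM in responders and 47.0 ± 2.22 in non-responders (0.38, SE 0.07, edgeR adjusted p = 0.0243). The median of that list was 0.03, and Gsdme, another gasdermin, had a log2 fold change of -0.09. Of the remaining gasdermins in the list, 6 were too low to test.

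Around RIPK1, 2 of 22 genes were called, both higher, where 4.71% of all genes tested were called higher. Cyld, a deubiquitinase that frees RIPK1 to form its death complex, had 116 ± 2.95 CPM in responders and 97.6 ± 9.81 in non-responders (0.26, SE 0.06, edgeR adjusted p = 0.033). Optn, a ubiquitin-binding adaptor reported to target RIPK1 for degradation, had 4.31 ± 0.54 and 2.79 ± 0.61 CPM (0.63, SE 0.16, edgeR adjusted p = 0.0389). The partners of caspase-8 did not pass, with log2 fold changes of 0.09 for Fadd (edgeR adjusted p = 0.312) and 0.06 for Cflar (0.434). Among genes of RNA sensing near ZBP1, 0 of 5 passed edgeR (3 at an unadjusted p under 0.05, where 29.1% of all genes tested were). The estimates of those 3, named after their values were seen, were 0.62 for Irf1 (edgeR adjusted p = 0.158), 0.59 for Tlr3 (0.0726) and 0.26 for Tlr4 (0.12). They were 0.18 for Adar, the editor that keeps ZBP1 quiet (edgeR adjusted p = 0.283), and -0.02 for Ticam1, the adaptor of TLR3 (0.881).

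The calls on these lists were lost when certain single tumors were left out, as were nearly all calls in the table. Without non-responder 1, 0 of the 52 pathway genes passed edgeR (17 at an unadjusted p under 0.05), and 0 passed without non-responder 4 (20) or without responder 3 (19 of 51 tested). Over all genes, 16 of 16285, 0 of 16239 and 17 of 15962 were called in these fits, in the same order. At an unadjusted p under 0.05 there were 3654, 4106 and 4051 of all genes.

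**Figure D5:**
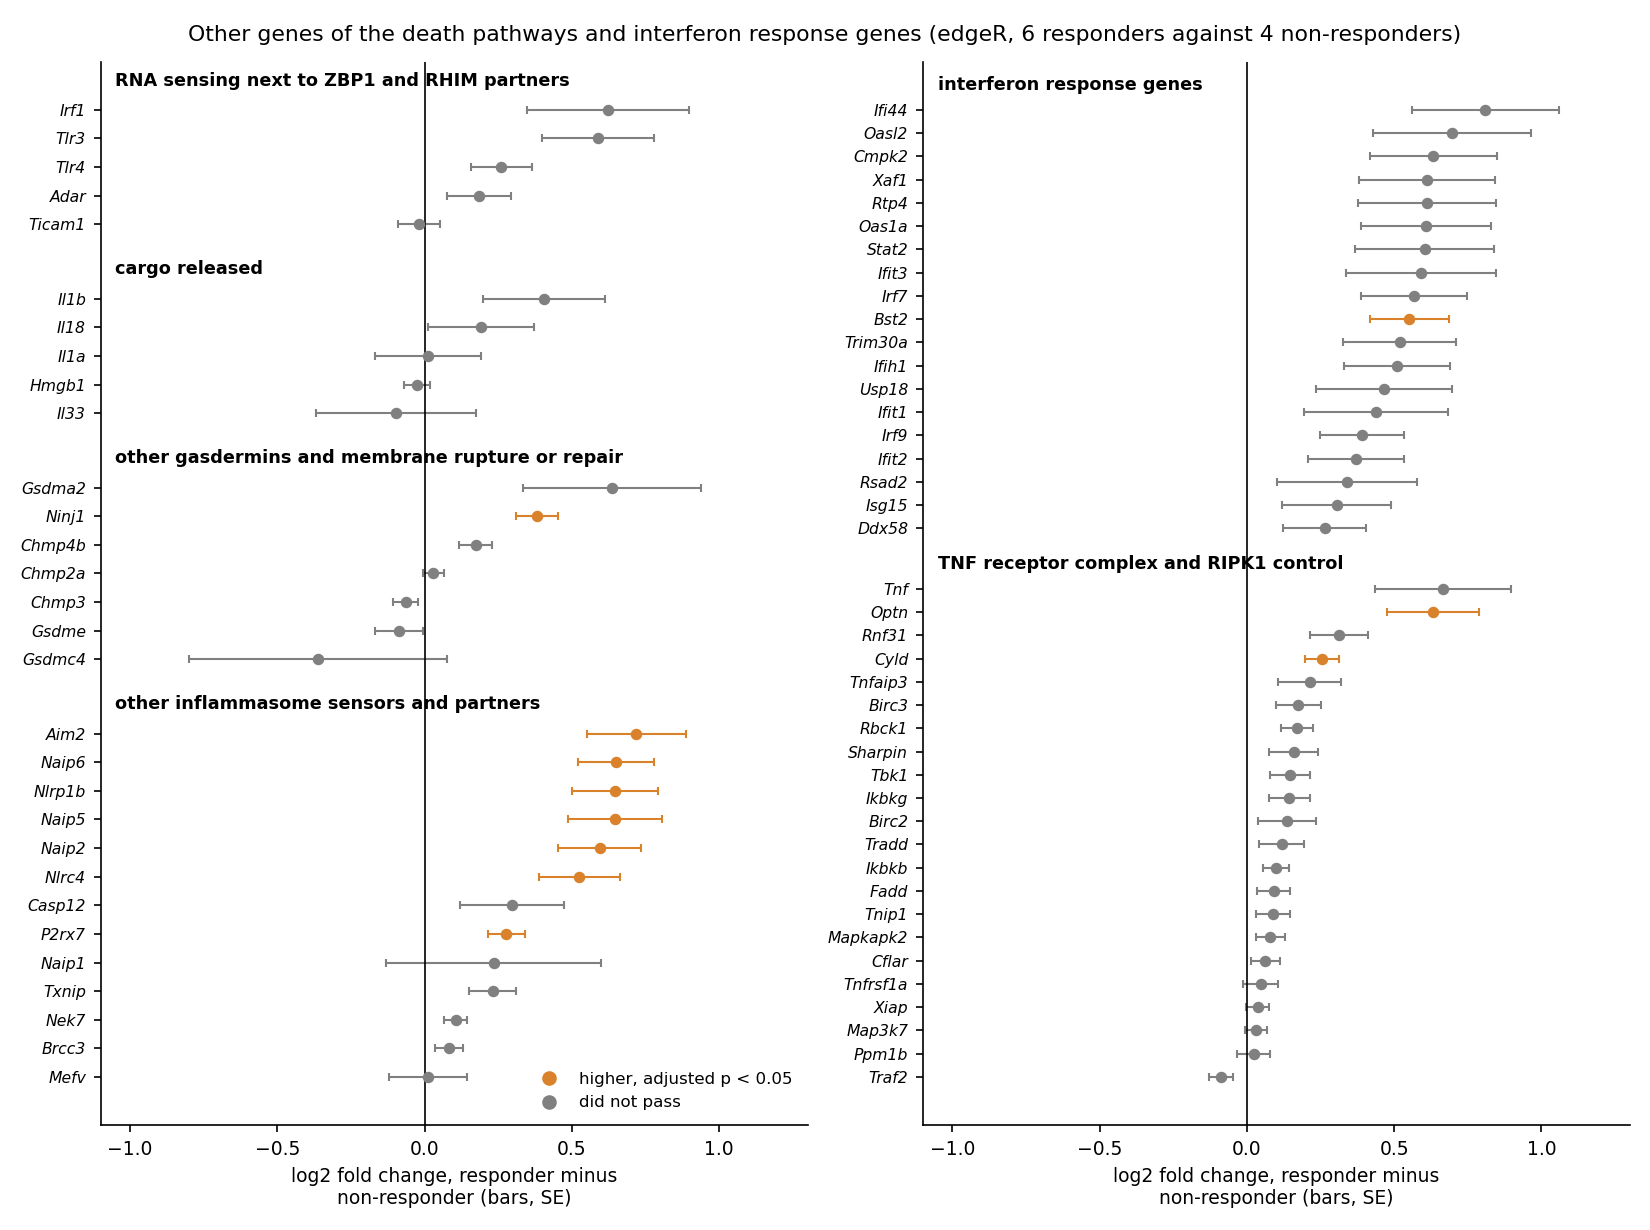
Log2 fold change, responder over non-responder (points; bars, SE), of the other pathway genes tested and of interferon response genes, by list, from edgeR on 6 responders and 4 non-responders. Orange marks genes called higher and grey those that did not pass. Orange points are 7 of 13 among inflammasome sensors and partners (median 0.30) and 1 of 19 among interferon response genes (median 0.55), and the difference between the lists was not tested.

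Interferon response genes gave the largest median of any list. All 19 had a higher estimate in responders, with a median log2 fold change of 0.55 and 14 at an unadjusted p under 0.05, but edgeR called only Bst2 (0.55, SE 0.13, adjusted p = 0.0378), 1 of 19 where 4.71% of all genes were called higher. The call on Bst2 was kept in 2 of 10 fits with a tumor left out, those without responder 4 and without non-responder 2. Its log2 fold change was 0.41 without non-responder 1 (edgeR adjusted p = 0.0536) and 0.17 with the Ptprc covariate (edgeR adjusted p = 0.926). Ifi44 (0.81, edgeR adjusted p = 0.064) and Irf7 (0.57, edgeR adjusted p = 0.0693) did not pass. The mean log2 CPM of the 19 genes was 6.03 to 6.35 in responders and 4.79, 6.13, 5.95 and 5.55 in non-responders 1 to 4. Non-responders 1 and 4, the low tumors for Zbp1, Casp1 and Casp4, were thus also the low tumors for this list, and whether these move together for a shared cause was not tested.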

How the data were processed

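RNA sequencing of polyA RNA was analyzed for 10 CT26 tumors, 6 responders and 4 non-responders by the response given in the labels, numbered in accession order. The authors estimated transcript abundance with Kallisto on GRCm38 and summed it to genes with tximport, and the table deposited holds unscaled expected counts, that is estimated counts per gene, of which 45.1% are fractional. Which annotation release, tximport option and strand setting were used is not given in the sources used here, and pseudoalignment makes counts of near-identical or overlapping genes uncertain.

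Rounded counts were fitted with edgeR 4.0.16 under R 4.3.3. filterByExpr (minimum count 10, minimum total count 15) left 16041 of 36009 genes and took no more than 0.0716% of any library. TMM scaling was used, and groups were compared by the two-sided quasi-likelihood test with Benjamini-Hochberg adjustment over all genes tested and a threshold of 0.05. Log2 CPM used a prior count of 2, and the SE is the log2 fold change over the square root of F. Principal components used log2 CPM. Alternatives were DESeq2 1.42.0 (without the filter on low counts), limma-voom (limma 3.58.1), other scaling and filters, Ptprc as a covariate, a threshold of 0.1 and leaving out tumors. The edgeR steps were tested on simulated data. Coordinates and exon lengths came from GENCODE M21 (GRCm38), which matched 35912 identifiers, and promoter windows from RefSeq.

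The 10 genes, the pathway and marker lists and the tests were chosen with earlier results of these data known. The rule named all 10 genes, the 10 other pathway genes with the smallest p, Il1b, Il18, Cflar, Fadd, Adar and Ticam1, the 3 interferon response genes with the smallest p and the 2 genes most like each of the 10. Some genes of these lists and of the likeness comparison, and an entire list, are not reported here, and the counts leave them out. No library was a repeat of another: the chi-square per degree of freedom was at least 10.7 in all 45 pairs.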

Additional observations from a re-analysis of the deposited data

Results flagged for a closer look

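A tumor that lay far from its own group was looked for in 66 sets of values and found in 3, and chance alone gives about 1 in 20. For Gsdmd in responders, responder 5 was the highest, with a gap to the next tumor of 0.7187 of the range of the group in log2 CPM. For Nlrp1b in responders, responder 5 was again the highest, with a gap of 0.6636 of the range. For Gsdmd minus Mlkl in non-responders, non-responder 3 was the lowest, at 0.33 where the other tumors of the group were at 0.63 to 0.68, a gap of 0.8438 of the range. Responder 5 also had the highest level of Ptprc, 499 CPM.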

How the results depend on the processing

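The count of the 10 genes called was 1. It was also 1 with RLE or library-size scaling, with no filter or the filter of another experiment of the study, and with limma-voom. It was 3 with DESeq2 and 3 at an adjusted p under 0.1, and 0 with the Ptprc covariate. With single tumors left out it ran from 0 to 4, and it was 0 with non-responders 1 and 4 both left out. For the other pathway genes the count of 10 became 16 with DESeq2, 16 at an adjusted p under 0.1, 0 with the Ptprc covariate and 0 with both non-responders left out, and ran from 0 to 16 with single tumors left out. For all genes the count of 1293 became 2580 with DESeq2, 2999 at an adjusted p under 0.1, 0 with the covariate (845 at an unadjusted p under 0.05) and 0 with both non-responders left out (2766), and ran from 0 to 1897 with single tumors left out. The 0 came without non-responder 4 (4106 at an unadjusted p under 0.05), and the 1897 without non-responder 2. There were 16 called without non-responder 1 and 17 without responder 3. The cause of these changes was not tested.

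With the Ptprc covariate the log2 fold change turned negative for Zbp1 (-0.21), Ripk3 (-0.0299), Casp1 (-0.17), Casp4 (-0.0786), Casp8 (-0.0785), Gsdmd (-0.04475), Mlkl (-0.12), Il1b (-0.03475), Il18 (-0.41), Cflar (-0.0213), Adar (-0.13) and Ifi44 (-0.0054). With non-responders 1 and 4 left out it did so for Nlrp3 (-0.0462), Mlkl (-0.0262), Il18 (-0.13), Cflar (-0.0189) and Adar (-0.0262). That of Ticam1 ran from -0.051 to 0.0386 with single tumors left out. None of these passed the test. No paired analysis was possible because the labels give no replicate numbers shared between groups. Lower depth widens the error of genes with low counts, such as Optn (59 counts in the lowest tumor).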
